A study of Mus musculus with 12 samples.

Results

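The genes described here are 32 genes of cholesterol synthesis and of its regulator SREBP2, chosen by name, among the 54232 genes counted in whole liver of mice with alcohol-associated steatohepatitis (ASH). They comprise 20 enzymes from acetyl-CoA to cholesterol, 6 genes of SREBP2 and the proteins that control it, and 6 other genes linked to SREBP2. All 32 had enough reads to be tested, among 14168 genes tested. RNA was sequenced from the livers of 5 mice that were pair-fed (PF) and 7 that were fed alcohol (AF), 1 library each, with no deleted gene or transgene in either group. All mice were male C57BL6/J, given an age of 8 weeks in the labels, which also give 8 weeks of feeding. PF mice received an isocaloric liquid diet high in fat through an intragastric tube. AF mice received the liquid diet with ethanol, raised to 27 g/kg/day, and, from the second week, 1 binge per week of 5 g/kg. The livers were taken one day after the last binge. According to the study's methods, AF mice also ate a solid diet rich in cholesterol and saturated fat freely for their remaining calories. Before intragastric feeding, mice had eaten either that diet or chow for 2 weeks, with no group named for either. The study elsewhere calls the solid part of the feeding chow, without naming a group. The sources used here do not say whether PF mice ate the solid diet in either period, so an effect of ethanol and one of dietary cholesterol cannot be told apart where the groups differed in it.

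Cholesterol is built from acetyl-CoA through mevalonate and the isoprenoid farnesyl diphosphate to squalene, which is closed into lanosterol and then trimmed to cholesterol. The transcription factor SREBP2 switches these enzymes on as a set. It is held in the endoplasmic reticulum with its escort SCAP by INSIG proteins when sterols are plentiful, and moves to the Golgi to be cut free by the site-1 and site-2 proteases when sterols are scarce.

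Between 24129900 and 28594027 reads per PF library and between 25099033 and 30578639 reads per AF library were counted on genes. Values are given as CPM, a gene's reads relative to the library's total after scaling by edgeR's TMM factors (PF livers 0.832 to 0.901, AF livers 0.880 to 1.36). AF livers were less alike than PF livers, with AF 6 nearest to the PF livers on the first principal component of all tested genes and AF 1 farthest from them. The labelled tissue was checked with 6 hepatocyte markers (Alb, Ttr, Trf, Fgb, Hnf4a, Cps1), all of which were detected, with a summed level of 93517 to 133912 CPM in PF and 52649 to 99867 CPM in AF livers. Of these, Trf and Cps1 were lower in AF livers, and the 6 had a median log2 fold change of -0.65. Markers of other cells moved as well. In AF livers, 5 of 6 Kupffer cell, 3 of 6 recruited macrophage, 6 of 7 stellate cell and all 4 tested bile duct markers were higher, as was 1 of 5 markers of sinusoidal endothelium (Lyve1). Of 4 red blood cell markers 1 was lower (Alas2), and none of the neutrophil, T cell and B cell markers passed the test. In whole tissue, fewer cells of a type and less RNA per cell cannot be told apart.

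Transcripts of cholesterol synthesis were lower in AF livers at nearly every step measured. Of the 32 genes, 26 were lower in AF than in PF livers by edgeR's quasi-likelihood test (adjusted p under 0.05), 1 was higher and 5 did not pass. Among all genes tested, 17.8% were lower and 22.0% were higher. The median log2 fold change of AF over PF (log2FC) was -2.36 over the 32 genes and 0.04 over all genes tested. In 24 of the 32 genes every AF liver lay below every PF liver, a pattern held by 9.49% of all genes tested. The gene with the smallest p of all 14168 was a member of the pathway, Nsdhl, and 12 of the 20 smallest and 19 of the 100 smallest p belonged to these genes. The AF mean was under 10% of the PF mean in 8 of the 32 genes, out of 57 such genes in all. The hepatocyte markers were set beside these genes. For each 1000 CPM of the 6 hepatocyte markers, the 20 enzymes together had 26.5 to 50.04 CPM in PF livers and 6.86 to 12.6 CPM in AF livers, and the groups did not overlap. Alb made up most of the marker sum (means of 89801 CPM in PF and 59186 CPM in AF livers). Sc5d was the largest part of the enzyme sum, with 1041 of 4266 CPM in PF and 278 of 681 CPM in AF livers by the means. The ratio thus rests largely on few genes.

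**Figure D1:**
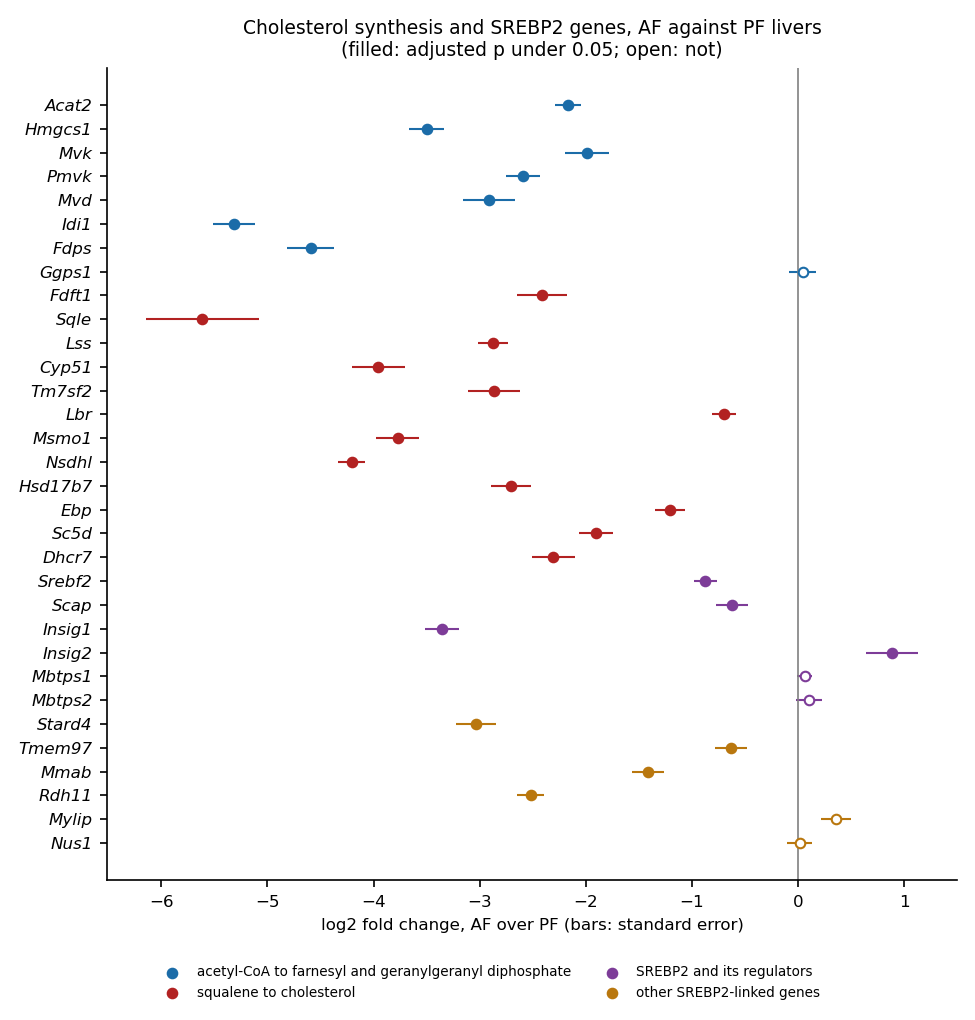
Log2FC of AF over PF livers (x axis) for the 32 genes in pathway order (y axis), from edgeR's fit of 5 PF and 7 AF livers. Bars are standard errors, filled points passed the adjusted threshold and open points did not. Sqle, Idi1 and Fdps lie farthest to the left, at -5.61, -5.31 and -4.59, and Insig2 is the only filled point to the right of 0.

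The steps from acetyl-CoA to farnesyl diphosphate were lower throughout, by 3.98-fold (Mvk) to 39.9-fold (Idi1) in the ratio of PF to AF mean CPM. Hmgcs1 (ENSMUSG00000093930, GRCm38 chromosome 13, 119690379 to 119708260), the cytosolic synthase that makes HMG-CoA, was one of the most abundant transcripts of the pathway. Its level was 648, 359, 598, 453 and 682 CPM in PF livers and ranged from 42.3 to 58.8 CPM (median 46.3) in AF livers. The log2FC was -3.50 (SE 0.17, edgeR adjusted p = 2.77e-08). The lowest PF liver was still far above the highest AF liver, and the AF livers differed little among themselves. Acat2, whose cytosolic thiolase joins acetyl-CoA units, had 81.4 to 123 CPM in PF and 19.2 to 28.7 CPM in AF livers, a log2FC of -2.17 (edgeR adjusted p = 1.25e-07). Acat2 lies beside its close relative Acat3, and reads of such copies may have been split between them.

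Mvk, Pmvk and Mvd encode the enzymes that phosphorylate mevalonate and then remove its carboxyl group. Mvk and Mvd were among the less abundant transcripts, and for all 3 the highest AF liver lay below the lowest PF liver. Mvk had 6.83 to 11.8 CPM in PF and 1.54 to 3.10 CPM in AF livers (log2FC -1.99, edgeR adjusted p = 2.84e-05). Pmvk had 39.6 to 55.8 CPM in PF and 5.96 to 12 CPM in AF livers (log2FC -2.59, edgeR adjusted p = 3.51e-07). Mvd had 7.16 to 13.5 CPM in PF and 0.881 to 2.60 CPM in AF livers (log2FC -2.91, edgeR adjusted p = 5.33e-06). AF 7 had the highest level among AF livers for all 3.

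Idi1 (chromosome 13, 8885501 to 8892451) encodes the isomerase that interconverts the 5-carbon isoprenoid units. Its level was 392, 354, 394, 315 and 391 CPM in PF livers and 5.71 to 14.5 CPM (median 9.16) in AF livers. The AF mean was 2.51% of the PF mean, with a log2FC of -5.31 (SE 0.20, edgeR adjusted p = 4.26e-09). PF livers were closely grouped, and every AF liver was far below them. Fdps (chromosome 3, 89093588 to 89101959), which joins these units into farnesyl diphosphate, had 188, 140, 169, 147 and 157 CPM in PF livers and 3.46 to 8.86 CPM (median 6.96) in AF livers. Its log2FC was -4.59 (SE 0.22, edgeR adjusted p = 2.77e-08). Ggps1, which extends farnesyl to geranylgeranyl diphosphate for protein prenylation, stood apart from its neighbours. It had 10.04, 12.3, 11.4, 12.6 and 13.8 CPM in PF livers and 9.32 to 15.9 CPM (median 12.1) in AF livers, and the groups overlapped throughout (log2FC 0.04, SE 0.13, edgeR adjusted p = 0.816).

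Promoter windows of 6 members are shown because their genes gave the clearest contrasts, which are steep falls (Idi1, Nsdhl), a fall shared by opposite-strand neighbours (Mvk, with Mmab) and the opposite directions of Insig1 and Insig2, and because Hmgcs1 holds a form of the sterol regulatory element. They are RefSeq windows of 300 bases (GRCm38.p6), written on the gene's own strand, and run from 250 bases before to 50 bases after the annotated start. Capitals mark TCACNCCAC, a form of the sterol regulatory element bound by SREBP2, and CCAAT, the motif bound by NF-Y, on either strand. The windows lie at chr13:119690101-119690400 (plus strand) for Hmgcs1, chr13:8885356-8885655 (plus) for Idi1, chrX:72918271-72918570 (plus) for Nsdhl, chr5:114444019-114444318 (plus) for Mvk, chr5:28071162-28071461 (plus) for Insig1 and chr1:121332540-121332839 (minus) for the Insig2 start with CCAAT.
Hmgcs1: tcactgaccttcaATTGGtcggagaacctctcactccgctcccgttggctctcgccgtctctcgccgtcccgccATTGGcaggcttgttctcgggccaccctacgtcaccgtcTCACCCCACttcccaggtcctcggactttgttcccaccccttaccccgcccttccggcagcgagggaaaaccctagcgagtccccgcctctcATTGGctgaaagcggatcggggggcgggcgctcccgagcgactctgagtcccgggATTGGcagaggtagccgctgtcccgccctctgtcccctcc
Idi1: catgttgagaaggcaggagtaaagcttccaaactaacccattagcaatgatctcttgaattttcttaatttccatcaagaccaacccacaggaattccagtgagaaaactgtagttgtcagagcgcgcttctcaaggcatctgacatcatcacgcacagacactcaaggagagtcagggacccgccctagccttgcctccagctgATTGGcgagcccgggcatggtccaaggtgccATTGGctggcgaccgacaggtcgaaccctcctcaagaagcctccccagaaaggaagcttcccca
Nsdhl: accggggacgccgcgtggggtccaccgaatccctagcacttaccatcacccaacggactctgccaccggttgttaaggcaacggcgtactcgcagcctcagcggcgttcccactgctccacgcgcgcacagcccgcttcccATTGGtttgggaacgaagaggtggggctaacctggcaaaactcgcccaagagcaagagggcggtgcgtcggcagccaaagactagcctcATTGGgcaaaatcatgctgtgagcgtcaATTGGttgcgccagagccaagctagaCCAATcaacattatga
Mvk: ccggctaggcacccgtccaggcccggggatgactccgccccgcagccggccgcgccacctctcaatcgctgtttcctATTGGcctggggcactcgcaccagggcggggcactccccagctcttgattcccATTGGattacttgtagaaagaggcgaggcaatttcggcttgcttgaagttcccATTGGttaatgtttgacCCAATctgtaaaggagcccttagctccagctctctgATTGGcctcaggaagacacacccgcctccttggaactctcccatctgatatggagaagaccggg
Insig1: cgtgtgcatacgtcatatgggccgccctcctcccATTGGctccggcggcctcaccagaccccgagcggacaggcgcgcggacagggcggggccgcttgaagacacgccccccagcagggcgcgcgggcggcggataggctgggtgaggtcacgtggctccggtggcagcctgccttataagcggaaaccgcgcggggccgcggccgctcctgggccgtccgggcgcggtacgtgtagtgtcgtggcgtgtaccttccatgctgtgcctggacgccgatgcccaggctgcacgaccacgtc
Insig2: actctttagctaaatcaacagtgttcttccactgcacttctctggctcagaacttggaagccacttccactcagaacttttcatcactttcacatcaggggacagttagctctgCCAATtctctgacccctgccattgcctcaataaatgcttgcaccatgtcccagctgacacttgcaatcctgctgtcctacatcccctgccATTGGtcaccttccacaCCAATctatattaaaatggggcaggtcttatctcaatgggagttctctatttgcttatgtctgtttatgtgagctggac

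RefSeq windows were matched by symbol for 28 of the 32 genes (all but Fdps, Fdft1, Sqle and Stard4), with 35 windows in all. TCACNCCAC was found in 1 of them, in Hmgcs1, where it reads TCACCCCAC and begins 137 bases before the start, and in 1.24% of all windows in the table. CCAAT was found in 68.6% of the 35 windows and in 37.4% of all windows. GGGCGG, the motif bound by Sp1, was found in 77.1% and 35.7%. At least 1 window held CCAAT in 20 of the 22 lowered genes with a window and in 4 of the 6 genes that were not lower. Insig2 was among these 4 through the window shown, and its windows at chr1:121327975-121328274 and chr1:121327629-121327928 held no CCAAT. Counts per gene do not tell which start was used in these livers. The Mvk and Mmab windows share 259 bases on opposite strands, since both genes start from the same stretch of chromosome 5. These matches of letters are a description of the windows and show no binding.

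The 12 genes from the making of squalene to cholesterol were all lower in AF livers, and in each of them every AF liver was below every PF liver. Fdft1, squalene synthase, is the first step that commits farnesyl diphosphate to sterols. It had 267, 189, 224, 165 and 218 CPM in PF and 22.2 to 62.9 CPM (median 34.7) in AF livers, with a log2FC of -2.41 (SE 0.24, edgeR adjusted p = 1.70e-05). Sqle (chromosome 15, 59315077 to 59331192), the squalene epoxidase, followed with the lowest fold change of the 32 genes. Its level was 229, 168, 211, 173 and 222 CPM in PF livers, and 9.41, 0.962, 1.88, 3.38, 8.18, 0.931 and 3.55 CPM in AF 1 to AF 7. The log2FC was -5.61 (SE 0.53, edgeR adjusted p = 1.27e-05), a ratio of 49.7-fold between the means. AF livers differed 10.1-fold among themselves for Sqle, more than for any other of the 32 genes, with AF 1 and AF 5 highest and AF 2 and AF 6 lowest. The lowest AF liver still had 25 Sqle reads.

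Lss, which closes the ring to lanosterol, had 94.6 to 131 CPM in PF and 11.2 to 18.1 CPM in AF livers (log2FC -2.88, edgeR adjusted p = 2.77e-08). Cyp51 (chromosome 5, 4081145 to 4104746), the lanosterol demethylase, had 325, 262, 282, 251 and 303 CPM in PF livers and 10.7 to 30.5 CPM (median 18.9) in AF livers. Its log2FC was -3.96 (SE 0.25, edgeR adjusted p = 3.49e-07), with AF 5 highest and AF 2 lowest among AF livers. The next step, reduction of the sterol's C14 double bond, can be made by either of 2 proteins, TM7SF2 and the lamin B receptor LBR. Tm7sf2 had 96.2, 91.5, 89.2, 75 and 85.7 CPM in PF livers and 7.31 to 21.9 CPM (median 9.42) in AF livers (log2FC -2.87, SE 0.24, edgeR adjusted p = 5.51e-06). Lbr had 21.5, 15, 19.3, 16.5 and 18.3 CPM in PF and 8.97 to 12.4 CPM (median 11.8) in AF livers, a smaller fall (log2FC -0.70, SE 0.11, edgeR adjusted p = 6.35e-04). Per kilobase of exon, Tm7sf2 was 4.83- to 6.61-fold above Lbr in PF livers, and the ratio was 0.642 to 2.50 in AF livers. Tm7sf2 was above Lbr in AF 2, AF 6 and AF 7 and below it in the other 4. Exons of Tm7sf2 overlap those of Vps51 on the same strand.

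The C4 demethylation complex removes the paired methyl groups next. Its oxidase Msmo1 had 390, 305, 373, 294 and 350 CPM in PF livers and 17.4 to 37.2 CPM (median 22.2) in AF livers (log2FC -3.77, SE 0.20, edgeR adjusted p = 5.29e-08). Its dehydrogenase Nsdhl (chromosome X, 72918557 to 72958514) had 238, 192, 204, 172 and 204 CPM in PF livers and 8.64 to 13.5 CPM (median 11.4) in AF livers. The log2FC of Nsdhl was -4.21 (SE 0.13, edgeR adjusted p = 5.08e-10). Both groups were tight for Nsdhl, which joined a steep fall with a small spread. Its ketoreductase Hsd17b7 had 75.6 to 112 CPM in PF and 10.9 to 23.0 CPM in AF livers (log2FC -2.70, edgeR adjusted p = 7.66e-07).

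The last 3 enzymes measured were also lower. Ebp, the sterol isomerase, had 287, 255, 261, 218 and 235 CPM in PF livers and 81.1 to 141 CPM (median 103) in AF livers, and its log2FC was -1.20 (SE 0.14, edgeR adjusted p = 6.36e-05). Sc5d, the sterol C5 desaturase, had the highest mean per kilobase of the enzymes in both groups, although Ebp was above it in AF 6. It had 1113, 730, 1252, 933 and 1178 CPM in PF and 235 to 363 CPM (median 260) in AF livers (log2FC -1.91, SE 0.16, edgeR adjusted p = 5.10e-06). Dhcr7, which reduces 7-dehydrocholesterol, had 137 to 192 CPM in PF and 17.9 to 47.4 CPM in AF livers (log2FC -2.31, edgeR adjusted p = 6.82e-06). Over the 20 enzymes the median log2FC was -2.79, and the median of the AF mean was 14.5% of the PF mean.

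**Figure D2:**
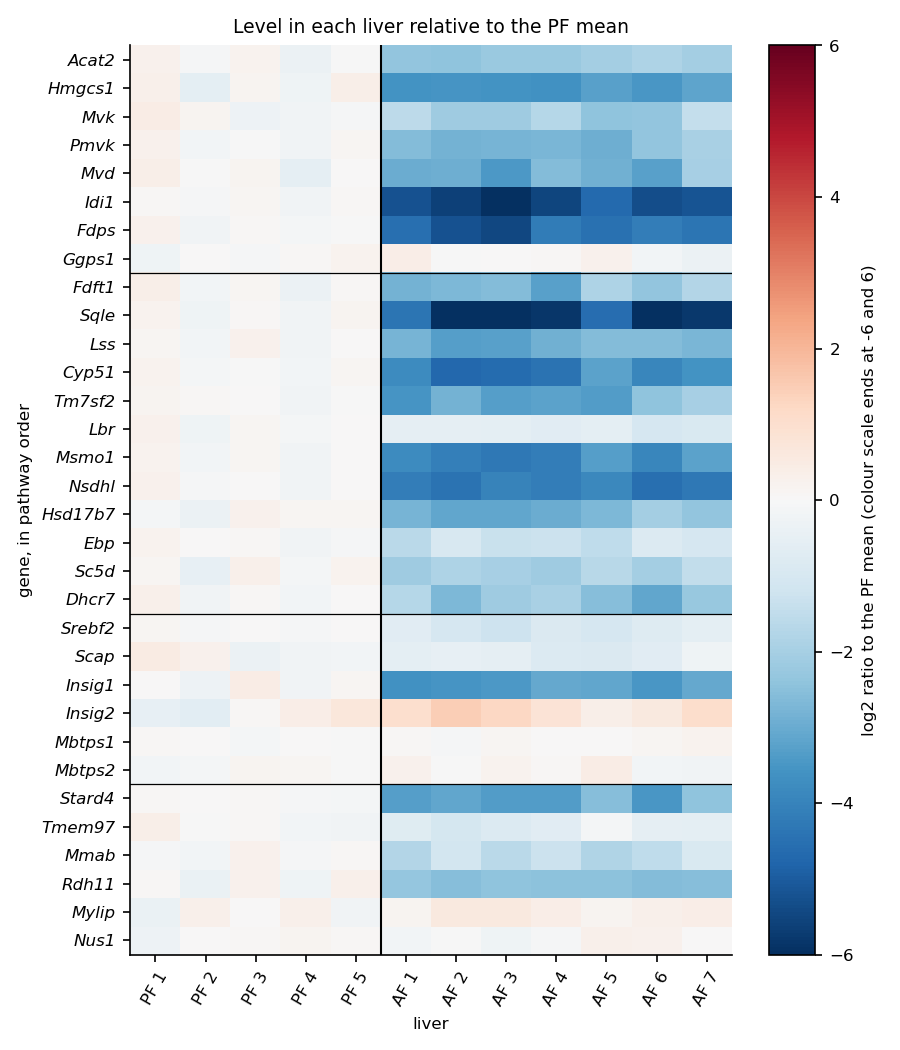
Log2 ratio of each liver's CPM to the PF mean (colour) for the 32 genes in pathway order (rows) in 5 PF and 7 AF livers (columns), with horizontal lines between the 4 groups of genes. The blue block of the AF livers is broken at Ggps1, at Insig2 at the site-1 and site-2 protease genes Mbtps1 and Mbtps2, and at Mylip and Nus1, and it is palest for Lbr, Srebf2, Scap and Tmem97.

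The regulators did not move as a set. Of the 6 genes, 3 were lower, 1 was higher and 2 did not pass the test. Srebf2 (chromosome 15, 82147181 to 82205379), which encodes SREBP2 itself, had 37.1, 32.8, 35.2, 33.0 and 35.3 CPM in PF livers and 14.4 to 22.9 CPM (median 18.8) in AF livers. The groups did not overlap, and the log2FC was -0.87 (SE 0.11, edgeR adjusted p = 9.21e-05). Scap, the sterol-sensing escort, had 81.3, 70.4, 45.7, 49.7 and 51.4 CPM in PF and 31.4 to 48.7 CPM (median 39.3) in AF livers. AF 7 lay within the PF range, and the log2FC was -0.62 (SE 0.15, edgeR adjusted p = 0.00627). The protease genes did not pass the test, and their groups overlapped. Mbtps1, the site-1 protease, had 62.0 to 69.6 CPM in PF and 63.9 to 75.8 CPM in AF livers (log2FC 0.06, SE 0.07, edgeR adjusted p = 0.483). Mbtps2, the site-2 protease, had 11.8 to 14.8 CPM in PF and 11.5 to 18 CPM in AF livers (log2FC 0.10, SE 0.12, edgeR adjusted p = 0.522).

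The INSIG genes moved in opposite directions. Insig1 (chromosome 5, 28071363 to 28078662), which retains the SCAP complex and is itself a target of SREBP2, had 678, 534, 895, 567 and 720 CPM in PF livers and 54.4 to 79.5 CPM (median 60.4) in AF livers. Its log2FC was -3.35 (SE 0.16, edgeR adjusted p = 2.77e-08), and no AF liver came near the PF range. Insig2 (chromosome 1, 121304353 to 121332589), the second retention protein, had 150, 135, 220, 277 and 333 CPM in PF livers, and 422, 577, 493, 376, 271, 321 and 430 CPM in AF 1 to AF 7. Its log2FC was 0.89 (SE 0.25, edgeR adjusted p = 0.0123). AF 5 and AF 6 lay within the PF range, and the other 5 AF livers were above it. Per kilobase of exon, Insig1 was 2.30- to 5.07-fold above Insig2 in every PF liver, and Insig2 was 3.15- to 9.07-fold above Insig1 in every AF liver. The order of the pair was thus turned in all 7 AF livers.

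**Figure D3:**
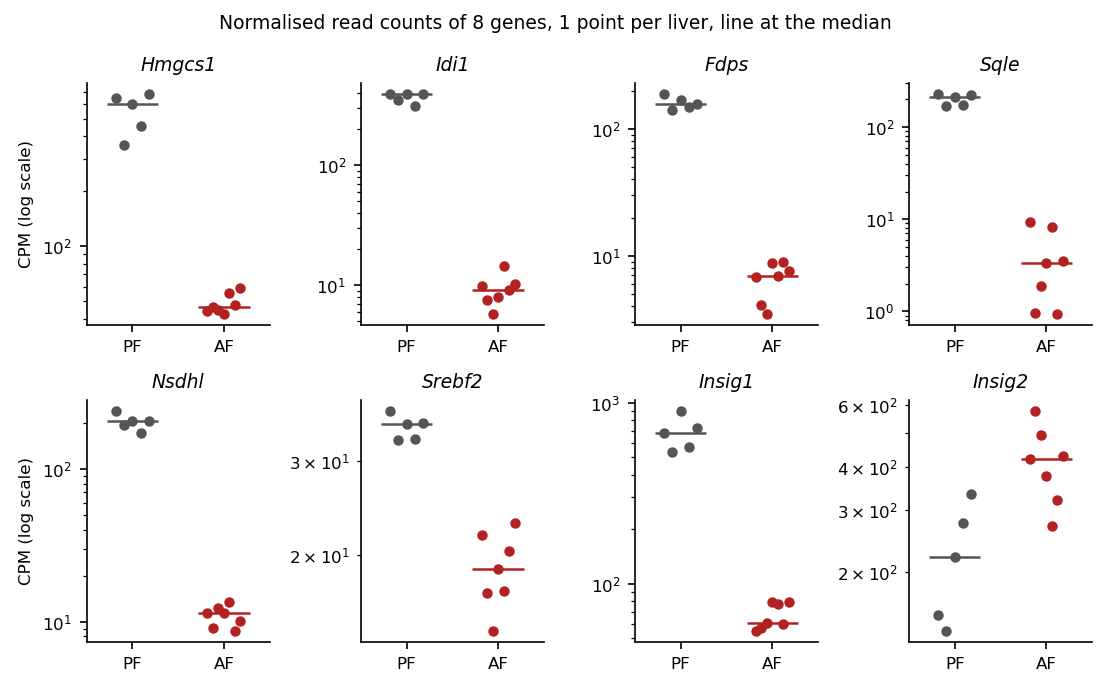
CPM on a log scale (y axis, a different range in each panel) in PF and AF livers (x axis) for Hmgcs1, Idi1, Fdps, Sqle, Nsdhl, Srebf2, Insig1 and Insig2, with 1 point per liver and a line at each group's median. The groups overlap only for Insig2, and the AF points are most spread for Sqle, from 0.931 to 9.41 CPM.

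Of the 6 other genes linked to SREBP2, 4 were lower and 2 did not pass. Stard4 (chromosome 18, 33199355 to 33213862), a cytosolic sterol carrier, had 200, 196, 198, 181 and 178 CPM in PF livers and 16.8 to 36.2 CPM (median 19.1) in AF livers. Its log2FC was -3.03 (SE 0.19, edgeR adjusted p = 3.42e-07), as large as that of the enzymes. Rdh11, a retinol dehydrogenase, had 145, 103, 165, 114 and 167 CPM in PF and 22.3 to 26.9 CPM (median 24.4) in AF livers (log2FC -2.52, SE 0.12, edgeR adjusted p = 2.77e-08). AF livers were nearly level for Rdh11, in which the highest and lowest were close together. Mmab, an enzyme of cobalamin metabolism whose start lies beside that of Mvk, had 21.1 to 28.2 CPM in PF and 6.84 to 12.6 CPM in AF livers (log2FC -1.42, edgeR adjusted p = 3.58e-05). Tmem97, the sigma-2 receptor, had 141, 107, 115, 99.2 and 94.0 CPM in PF livers and 52.7 to 103 CPM (median 68.1) in AF livers. AF 5 lay within the PF range, and the log2FC was -0.64 (SE 0.15, edgeR adjusted p = 0.00553).

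Mylip encodes a ubiquitin ligase for lipoprotein receptors and is known as a target of the sterol receptor LXR, not of SREBP2. It had 8.37, 14.1, 11.3, 13.8 and 9.68 CPM in PF and 12.7 to 16.9 CPM (median 14.7) in AF livers (log2FC 0.36, SE 0.14, edgeR adjusted p = 0.0534). Nus1, a subunit of the enzyme that makes dolichol, had 65.6 to 89.4 CPM in PF and 67.0 to 97.9 CPM in AF livers (log2FC 0.02, SE 0.11, edgeR adjusted p = 0.925). The groups overlapped for both. Mylip passed as higher when PF 2, PF 4, AF 1 or AF 5 was left out, where the log2 fold change of Mylip was 0.39 to 0.44.

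The order of transcript levels was also changed. Per kilobase of exon, the 5 highest of the 32 genes in PF livers were Insig1, Sc5d, Hmgcs1, Ebp and Idi1, with means of 219, 214, 119, 109 and 105 CPM per kilobase. The first and second of these did not differ beyond the spread of the PF livers, nor did the third to the fifth. In AF livers they were Insig2 (119 CPM per kilobase), Sc5d (57.1), Tmem97 (52.1), Ebp (47.2) and Insig1 (21.5). Of these, Sc5d, Tmem97 and Ebp did not differ beyond the spread of the AF livers. By their means, Sqle was 15th in PF livers and last of the 32 in AF livers, at 0.729 CPM per kilobase, which did not differ from Mvd (0.769) and Mvk (0.817) beyond the spread of the AF livers. Idi1 moved from the fifth to the 22nd place and Fdps from the 14th to the 27th, while Nus1 moved from the 21st to the sixth with a nearly level mean (16.5 and 16.7 CPM per kilobase). Neighbours of Idi1 in the AF order also lay within the spread of the livers.

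Each AF liver showed the fall. The 20 enzymes together took 0.295 to 0.421% of the reads of a PF library and 0.0600 to 0.0864% of the reads of an AF library. The median enzyme level, as a percentage of the PF mean, was 14.3% in AF 1, 13.6% in AF 2, 10.9% in AF 3, 13.3% in AF 4, 14.4% in AF 5, 17.3% in AF 6 and 22.6% in AF 7. Between 25 and 27 of the 32 genes lay below the whole PF range in each AF liver. The matching share of all genes tested was not counted for single livers, only for all 7 AF livers at once (9.49%). AF 6 and AF 7, with the lowest scores among AF livers on the first principal component (-7.49 and 20.9), had the highest medians, AF 7 above AF 6. The other AF livers had scores of 23.7 to 82.2 and medians of 10.9 to 14.4%. A relation between enzyme level and overall profile was not tested. With AF 1 and AF 6 both left out the number of lowered genes was again 26. AF 7 was the highest AF liver for 12 of the 26 lowered genes and the lowest for none. AF 3, with the lowest median, was the lowest AF liver for 6 of them, as was AF 6. By the summed CPM of the 20 enzymes, a different measure from the median, AF 7 was highest (851 CPM) and AF 4 lowest (600 CPM). AF 5 had 753 and AF 6 had 682 CPM. The order of these sums was different for each 1000 CPM of the hepatocyte markers. On that scale the 20 enzymes together were highest in AF 5 (12.6 CPM) and lowest in AF 6 (6.86 CPM), with 8.52 CPM in AF 7.

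**Figure D4:**
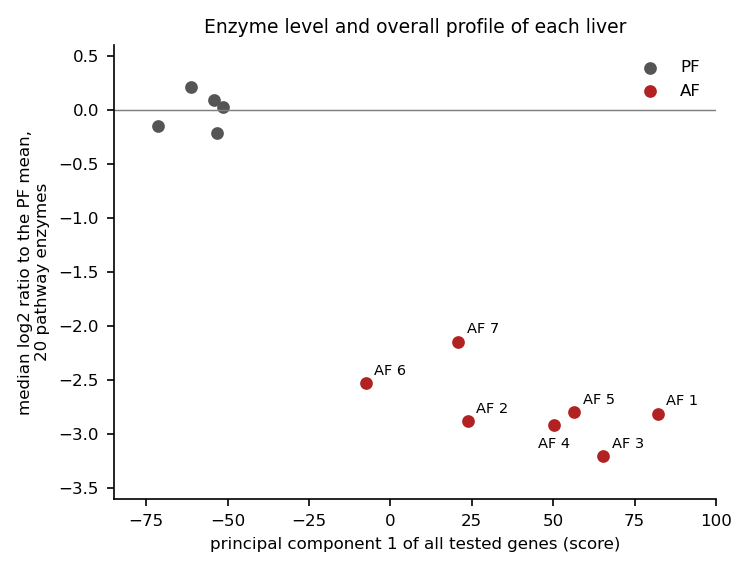
Median log2 ratio of the 20 enzymes to the PF mean (y axis) against the score on the first principal component of all tested genes (x axis), 1 point per liver, PF grey and AF red. All 7 AF livers lie between -3.20 and -2.14 on the y axis, and their scores spread from -7.49 (AF 6) to 82.2 (AF 1). AF 7 and AF 6 lie highest of the AF livers on the y axis.

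Lists of genes around the pathway are given by their counts, to be read against the 17.8% of all genes that were lower and the 22.0% that were higher. Of 17 genes of the isoprenoid branches that lead to dolichol, ubiquinone and prenylated proteins, 3 were lower and none higher, with a median log2FC of -0.15. On library totals without TMM factors the direction was the opposite, with 6 higher and none lower, and limma-voom gave 2 higher and 7 lower. The 3 were Rabggta (-0.44), a subunit of the Rab prenyltransferase, Trit1 (-0.39), which prenylates tRNA, and Fnta (-0.30), the subunit shared by both CAAX prenyltransferases. None of the 3 passed on library totals, where Fnta had a log2FC of 0.06, and Trit1 lost its call in 9 of 21 alternative fits. Of 21 genes for the transport and turnover of SREBP and its partners, 2 were higher (Rnf145, 0.49, and Sec24b, 0.30), 2 were lower (Sec24a, -0.65, and Sar1b, -0.47) and the median was -0.12. RNF145 is a ubiquitin ligase of sterol sensing, and the other 3 are parts of the COPII coat that carries SCAP to the Golgi. This balance was not stable, with 7 higher and none lower on library totals, 2 higher and 4 lower with DESeq2 or RLE scaling, and 3 higher and 7 lower with limma-voom or a replicate block. Rnf145 and Sar1b lost their calls in 5 and 10 of 21 alternative fits, and Sec24a on library totals alone (edgeR adjusted p = 0.0522).

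Of 8 genes of LXR and sterol efflux, 2 were higher and none lower, against 1 higher and 3 lower once GC content and length were offset. Abcg1, which exports cholesterol, had 5.58 to 8.53 CPM in PF and 7.78 to 32.9 CPM (median 22.5) in AF livers, a log2FC of 1.5 (SE 0.29, edgeR adjusted p = 0.00174). Nr1h2, the gene of LXR beta, had a log2FC of 0.57 (edgeR adjusted p = 0.00642), which was 0.20 and did not pass once GC content and length were offset (edgeR adjusted p = 0.0627). Of 15 genes of cholesterol storage and transport, 4 were higher and 3 lower, and on library totals 8 were higher and 1 lower. The higher ones included Gramd1b (1.84), a sterol transporter, Soat1 (1.26), which esterifies cholesterol for storage, and Nceh1 (0.67), a hydrolase of cholesterol esters. The fourth, Soat2 (0.37), the main esterifying enzyme of hepatocytes, is named after its value was seen, and its call was lost in 17 of 21 alternative fits. The lower ones were Scp2 (-0.75), a sterol carrier, Lcat (-0.56), which esterifies plasma cholesterol, and Stard5 (-0.41), a sterol-binding protein. Abcg1, Soat1 and Gramd1b were each lowest in AF 6 among AF livers, as were the markers Gpnmb, Trem2 and Cd68, the 3 of 6 recruited macrophage markers that were higher. The other 3 of that list (Ccr2, Itgam, Ly6c2) were not lowest there. Every stellate cell and T cell marker was also lowest in AF 6, as were the bile duct markers Krt19 and Krt7. The Kupffer cell marker Adgre1 and the B cell marker Ms4a1 were too, so this pattern was not particular to macrophage markers. AF 6 was also the AF liver nearest to the PF livers on the first principal component, so a lowest rank there does not tell the cell source of a transcript. The summed level of the recruited macrophage list was 23.3 to 57.9 CPM in PF and 59.3 to 499.9 CPM in AF livers. In the same order, the Kupffer cell list had 616 to 886 and 891 to 2782 CPM. The stellate cell list had 68.1 to 162 and 138 to 581 CPM. The part of these cells in the levels of sterol genes was not tested. Scp2 and Lcat lost their calls in 4 and 12 of 21 alternative fits.

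All 14 genes of SREBP1 and lipogenesis were lower, with a median log2FC of -1.58, and 12 were lower on library totals without TMM factors. Pnpla3, a lipid droplet protein, had a log2FC of -4.13, Thrsp, a lipogenic regulator, one of -3.88 and Acss2, an acetyl-CoA synthetase, one of -2.94. The value of Pnpla3 rested partly on PF 3, which had 10.96 CPM against 0.915 to 3.12 CPM in the other PF livers, and without PF 3 the log2 fold change of Pnpla3 was -3.17. This median was nearer to 0 than that of the 20 sterol enzymes (-2.79).

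**Figure D5:**
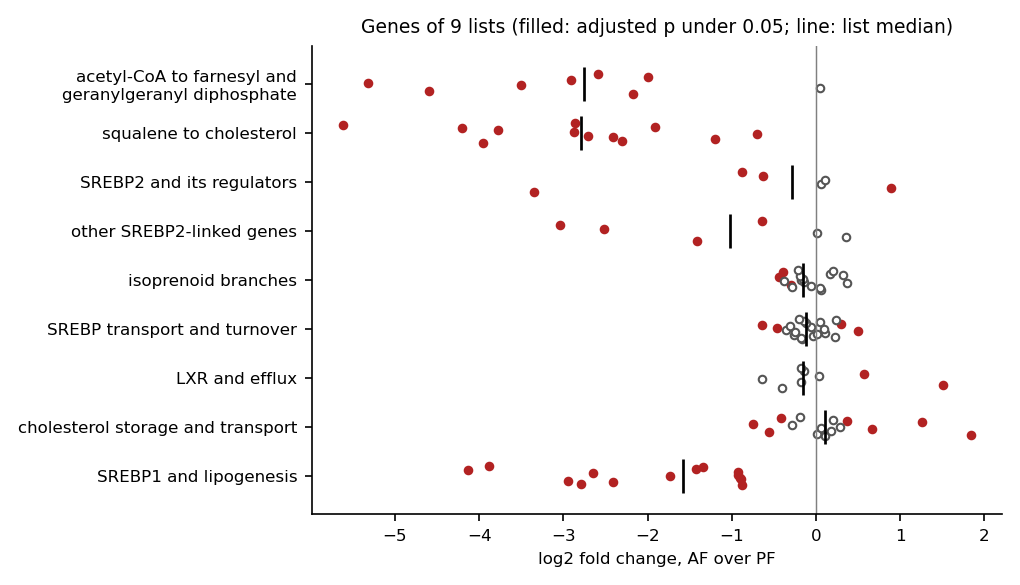
Log2FC of AF over PF livers (x axis) for each gene of the 4 groups of sterol genes and 5 further lists (y axis). Filled points passed edgeR's adjusted threshold, open points did not, and vertical lines are list medians, which lie at -2.75 and -2.79 for the enzyme groups, at -1.58 for lipogenesis and between -0.16 and 0.10 for the isoprenoid, transport, efflux and storage lists.

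Some values rest on reads that other genes could share. In the annotation, exons of Hmgcs1, Idi1, Ggps1, Fdft1, Lss, Cyp51, Lbr and Scap overlap exons of a gene on the opposite strand, and those of Fdps, Tm7sf2, Lbr and Mbtps2 overlap a gene on the same strand. The kit kept strand, but the strand setting of the counting is not given in the sources used here, so these values are less certain than those of the other genes. On library totals without TMM factors the median log2FC of all genes moved by 0.36, and Lbr, Scap and Tmem97 no longer passed (log2FCs -0.32, -0.26 and -0.27, edgeR adjusted p = 0.142, 0.166 and 0.186). Relative to the median of all genes they stood at -0.72, -0.66 and -0.67 there. Mbtps1, Mylip and Nus1 passed as higher on those totals (log2FCs 0.42, 0.72 and 0.36), and stood at 0.03, 0.32 and -0.04 relative to that median.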

How the data were processed

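Whole liver RNA of 5 PF and 7 AF mice was sequenced from stranded libraries enriched for poly-A. The values deposited by the authors are read counts on each Ensembl gene, not normalized. The submitters' processing notes name FastQC 0.10.1, TopHat2 2.0.13, HTSeq 0.10.0 and GRCm38, and the study's methods state that reads were not trimmed. The annotation release and strand setting are not given in the sources used here. The study's own test, Cuffdiff2, cannot be run on counts.

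Of 54232 gene IDs, 54079 were named through GENCODE M21. Counts were filtered with filterByExpr, which left 14168 genes, scaled with TMM and tested with edgeR 4.0.16 in R 4.3.3 (quasi-likelihood test, AF against PF, two-sided, no covariate, Benjamini-Hochberg adjustment over all 14168 genes, threshold 0.05). Standard errors came from the F statistic. Levels per kilobase used the union of a gene's annotated exons. No pair of libraries within a group agreed within counting noise. P-values measure the spread between mice. Alternatives were DESeq2 1.42.0, limma-voom 3.58.1 with sample quality weights, other scalings and filters, thinning, a GC and length offset, a replicate block and libraries left out. Simulated data of 14032 genes, 198 of them changed, were put through the main test. There edgeR found 81 of 98 genes changed 2-fold and 100 of 100 changed 4-fold, with 10 false calls. In the livers 3116 genes were higher and 2519 lower. The simulated figures therefore do not tell how well changes this widespread were called.

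All 32 genes are named in the text, with up to 3 genes per direction with the largest changes from each further list. Soat2, a further higher gene of the storage list, is named in addition. The genes, lists and motifs were chosen with earlier results of these data known.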

Additional observations from a re-analysis of the deposited data

How the results depend on the processing

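The number of lowered genes was 26 in every alternative except library totals without TMM factors, where it was 23 because Lbr, Scap and Tmem97 did not pass. On those totals 6458 of all genes were higher and 938 lower, against 3116 and 2519 with TMM. The number of genes higher in AF livers, 1 with TMM, was 4 on library totals (Insig2, Mbtps1, Mylip and Nus1). It was 2 with limma-voom, with the GC and length offset (Mbtps2), and with AF 1 and AF 6 both left out. With each library left out in turn it ranged from 1 to 2, and Mylip passed without PF 2, PF 4, AF 1 or AF 5. Insig2 passed in all 21 alternatives (edgeR, DESeq2 or limma adjusted p from 0.00233 to 0.0402).

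With the replicate number as a block, 26 genes were lower and 2 higher, Mylip being added (log2 fold change 0.39). The numbers are shared in name only, since the correlations of same-numbered livers ran from -0.076 to 0.115, and only PF 3 correlated best with the AF liver of its own number.

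Of 672 values of the 32 genes under the alternatives, 648 kept their direction and their side of the threshold. So did 333 of 378 values of 18 genes named from the further lists. Soat2, whose call was lost in 17 of 21 alternatives, was not among these 18. Among the 32 genes, signs turned for Nus1, Ggps1 and Mbtps1, and no turned value passed the threshold. The log2 fold change of Nus1 was -0.00281 with DESeq2, -0.00495 with RLE scaling, -0.106 with limma-voom and -0.0473 with the block, and ranged from -0.0533 (without PF 1) to 0.0613 (without AF 3) with each library left out in turn. The log2 fold change of Ggps1 ranged from -0.0228 (without AF 1) to 0.102 (without AF 7) in the same way, and the log2 fold change of Mbtps1 was -0.0225 with the offset. Among the further lists the log2 fold change of Fnta turned to 0.0608 on library totals. The cause of these changes was not tested. For the 32 genes, the fewest reads in a library were 25 (Sqle, AF 6).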
